A study of Mus musculus with 19 samples.

Results

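Tenascins and other matricellular proteins were followed as 8 genes chosen by name, Tnc, Tnn, Tnxb, Postn, Cthrc1, Fn1, Sparc and Tgfbi, of the 27998 genes counted at sites of heterotopic ossification, the growth of bone in soft tissue after trauma. Single cell transcripts of the Achilles tenotomy site were available as 19 libraries, namely 4 at day 0, 3 at day 3, 4 at day 7 and 4 at day 21 after burn/tenotomy, and 4 at day 7 with p7N3. Injured mice received a burn of 30% of the body surface on the back together with the tenotomy, and the study describes day 0 as uninjured, although the labels list the burn for those libraries too. p7N3, a peptide that activates CD47, was injected daily at 10 mg/kg for 3 days before and 3 days after injury, and the day 7 mice are described as given PBS. The mice were males of 6 to 10 weeks. The labels name C57 mice and LysmCre/Tgfb1fx/fx mice, which lack Tgfb1 where the myeloid LysM promoter drives Cre, for the series as a whole, so that the genotype of a single library is not known here. The harvest day of p7N3 replicate 4 came from the text of the study and not from the labels. The study says that single cell experiments were repeated at each time point to gauge variability between mice. How many mice went into a library was not found in the sources used here, and p-values measure the spread between these libraries.

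Matricellular proteins are secreted into the extracellular matrix, where they act more on how cells attach, move and signal than as structural cables. Tenascins are very large glycoproteins, of which tenascin C (Tnc) is sparse in most adult tissues and appears in embryos and in wounds, tenascin N (Tnn, also called tenascin W) is known from developing bone and tumour stroma, and tenascin X (Tnxb) lies along the collagen fibrils of mature connective tissue. Periostin (Postn) and Tgfbi share fasciclin domains. The former is named for the periosteum, the sheath of bone, and the latter for its induction by TGF beta. Fibronectin (Fn1) is the integrin ligand on which early wound matrix is built, Sparc (osteonectin) binds collagen, and Cthrc1 is a secreted protein known from injured arteries. Fibroblasts of a healing tendon and of scar lay down a matrix rich in these proteins.

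The genes were identified by symbol and Ensembl identifier, and their positions are those of GENCODE vM21 on GRCm38. Tnc (ENSMUSG00000028364) spans chr4:63959785-64047015 on the minus strand. Tnn (ENSMUSG00000026725) spans chr1:160085029-160153580 on the minus strand and Tnxb (ENSMUSG00000033327) chr17:34670535-34719815 on the plus strand. Postn (ENSMUSG00000027750) lies at chr3:54361109-54391037 and Cthrc1 (ENSMUSG00000054196) at chr15:39076932-39087121, both on the plus strand. Fn1 (ENSMUSG00000026193) lies at chr1:71585520-71653200 and Sparc (ENSMUSG00000018593) at chr11:55394500-55423183, both on the minus strand, and Tgfbi (ENSMUSG00000035493) at chr13:56609523-56639562 on the plus strand. Tnc, Tnxb and Fn1 overlap genes annotated on the other strand.

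Promoters of 3 genes with wide swings between days are shown, as the 250 bases before a RefSeq start on GRCm38.p6, 5′ to 3′ along the gene. Capitals mark matches to TATAAA and to TGANTCA, the AP-1 site, each searched on both strands. GGAATG, the core of the TEAD site, was searched too and had no match in them. The windows are chr4:64047016-64047265 (minus) for Tnc, chr3:54360857-54361106 (plus) for Postn and chr17:34670285-34670534 (plus) for Tnxb.
Tnc: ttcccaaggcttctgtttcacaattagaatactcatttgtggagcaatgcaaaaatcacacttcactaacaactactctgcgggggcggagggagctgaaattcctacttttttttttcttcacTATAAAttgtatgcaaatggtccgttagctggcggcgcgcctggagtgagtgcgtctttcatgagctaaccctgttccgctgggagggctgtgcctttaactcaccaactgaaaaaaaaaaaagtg
Postn: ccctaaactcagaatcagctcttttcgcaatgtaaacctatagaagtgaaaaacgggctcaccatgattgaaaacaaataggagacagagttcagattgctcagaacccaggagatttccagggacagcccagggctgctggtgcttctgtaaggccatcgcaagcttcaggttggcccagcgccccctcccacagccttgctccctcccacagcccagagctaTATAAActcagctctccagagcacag
Tnxb: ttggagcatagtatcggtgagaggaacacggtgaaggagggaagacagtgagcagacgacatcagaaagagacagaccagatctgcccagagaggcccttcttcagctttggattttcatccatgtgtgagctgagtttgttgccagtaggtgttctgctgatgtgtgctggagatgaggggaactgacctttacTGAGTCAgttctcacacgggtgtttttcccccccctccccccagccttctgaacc
Each of these windows held 1 match and no motif overlapped another. TATAAA lay 26 to 21 bases before the start of Postn and 126 to 121 bases before that of Tnc, and 12.4% of 32851 promoters of this length held it. TGAGTCA lay 55 to 49 bases before the start of Tnxb, and 6.75% of promoters held an AP-1 match. GGAATG was in 12.6% of promoters. These are matches of letters only.

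After removal of barcodes with under 500 genes or over 25% mitochondrial UMIs, 39541 cells were kept. Their UMIs, the counted transcript molecules, numbered 3019467 to 5383855 per library at day 0 and 11064153 to 39870492 in the injured libraries, so that day 0 was the least precise. The stromal-like cells (13968 cells in 9 clusters, 1183 at day 0, 823 at day 3, 5749 at day 7, 2018 at day 21 and 4195 with p7N3) were named from 10 markers such as Pdgfra, which reached 135.6 CPM in them and 6.902 CPM in all other cells. The members were kept out of the genes used to cluster. Different clusters made up the class at different days. A cluster led by Myoc, Inmt and Hmcn2 held 79.1% of stromal UMIs at day 0 and 1.33% at day 7, and a cluster led by Prg4, Wfdc21 and Retnlg held 93.9% at day 3. At day 7 the cluster led by C1qtnf3, Scx and Mest held 37.8%, and at day 21 that led by Sfrp4, Eln and Abcc9 held 47.9%. Markers of other cells moved with the days in the stromal-like sums. The 6 granulocyte markers summed to 4.29 to 22.9 CPM at day 0, 1409 to 2378 CPM at day 3, 97.4 to 193 CPM at day 7 and 5.37 to 25.7 CPM at day 21. The 10 macrophage markers summed to 70.3 to 174, 1413 to 1661, 398 to 652 and 115 to 224 CPM at these days. The 5 tenocyte markers summed to 97.4 to 252, 41.7 to 163, 342 to 1056 and 821 to 1299 CPM, and the 6 chondrocyte markers to 0.458 to 4.58, 11.4 to 29.7, 120 to 266 and 89.6 to 240.3 CPM, with Acan, Col9a1, Hapln1 and Matn3 at 0 in all day 0 libraries. Their part in the results was not tested.

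Apart from Tgfbi, the members were, in means over all days, mainly transcripts of stromal-like and tenocyte-like cells. The latter are a cluster that held tendon and cartilage genes together. It was named from the tendon list (Tnmd 2057 CPM, Fmod 2674 CPM), but the cartilage collagen gene Col2a1 (1700 CPM), Cilp2 and Chad led it against the stromal clusters. At a clustering resolution of 2 a tenocyte-like cluster of 1183 cells and a chondrocyte-like cluster of 75 cells, 71 of day 21, were separate. Tnc stood at 425 ± 165 CPM (SD, n = 11 libraries with at least 10 cells) in tenocyte-like and 405 ± 309 CPM (n = 19) in stromal-like cells, ahead of Schwann cell-like cells at 210 ± 217 CPM (n = 12). These means pool the days, which differed widely. Postn had the same order, with 2857 ± 1116 CPM in tenocyte-like, 2699 ± 1769 CPM in stromal-like and 974 ± 725 CPM in Schwann cell-like cells. Sparc was spread most widely over the tissue. It stood at 20246 ± 2474 CPM in tenocyte-like, 11553 ± 3591 CPM in stromal-like, 8094 ± 2150 CPM in Schwann cell-like, 6459 ± 2382 CPM in pericyte/smooth muscle-like and 5021 ± 632 CPM in endothelial-like cells. Tgfbi was the member that leukocytes held most of. It stood at 951 ± 160 CPM in granulocyte-like (n = 7), 922 ± 272 CPM in monocyte/macrophage-like and 525 ± 190 CPM in dendritic cell-like cells, and at 392 ± 86.9 CPM in stromal-like cells. Fn1 was carried by tenocyte-like (5363 ± 2555 CPM), stromal-like (2780 ± 1030 CPM) and lymphatic endothelial-like cells (1110 ± 619 CPM). Single days could differ from these means. At day 3 pericyte/smooth muscle-like cells held Tnxb at 205 ± 23.5% and Sparc at 131 ± 26.3% of the stromal-like level of the same library (n = 3). Postn was at 94.1 ± 27.1% and Tnc at 62.4 ± 16.0% there, and Tgfbi, Fn1, Cthrc1 and Tnn at 30.8, 26.3, 8.43 and 0%. At day 0 their Tnc was at 176 ± 130% (n = 4).

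**Figure D1:**
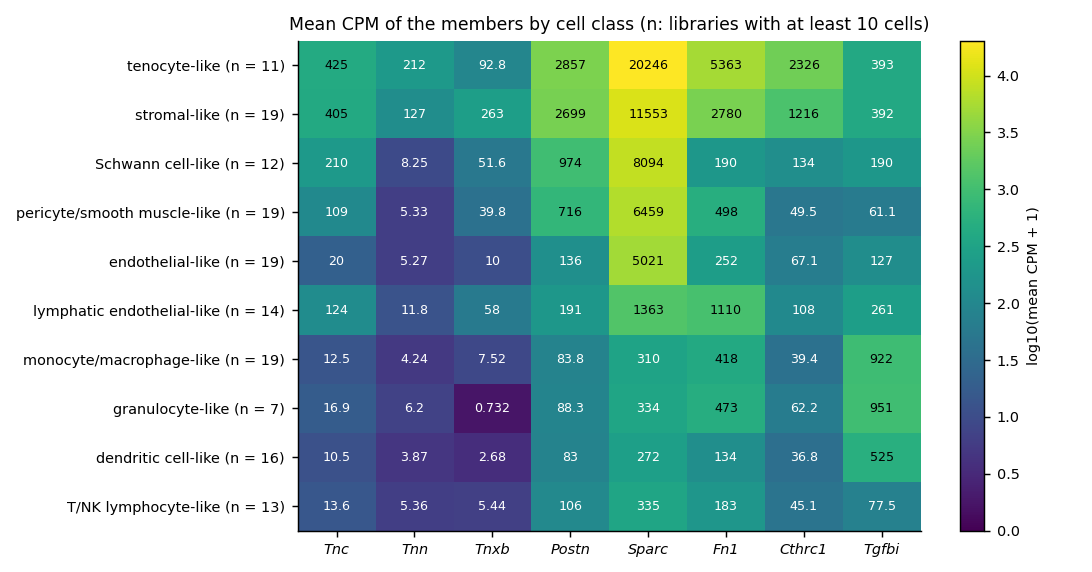
Mean level of the 8 genes (columns) in 10 cell classes (rows), as log10(mean CPM + 1). Means are over libraries with at least 10 cells of the class. Tnc, Tnn, Postn and Cthrc1 are brightest in tenocyte-like and stromal-like cells, and Sparc is high in all structural cells. Tgfbi is higher in macrophage-like and granulocyte-like (922 and 951 CPM) than in stromal-like cells (392 CPM).

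Few tenocyte-like cells carried a large share of some members. At day 0 they held 2.586% of all UMIs but 53.7 ± 21.8% of the Tnc UMIs (SD, n = 4) and 55.4% of the Cthrc1 UMIs, on average over the libraries. At day 7 the stromal-like cells held 94.8 ± 1.3% of Tnc and 95.7 ± 1.7% of Tnn. At day 21, when 908 tenocyte-like cells were present, those held 49.5 ± 3.2% of Tnc and 59.0 ± 9.3% of Tnn, and stromal-like cells 44.6 ± 4.0% and 39.3 ± 8.7%. Within the tenocyte-like cells Tnc stood at 238 ± 78.0 CPM at day 0 (n = 3), 628 ± 110 CPM at day 7 (n = 3) and 400.4 ± 30.0 CPM at day 21 (n = 4). The stromal-like cells held 11.01 ± 8.76, 753 ± 29.4 and 234 ± 67.3 CPM on the same scale (n = 4 each), so that tenocyte-like libraries lay above all stromal ones at days 0 and 21. Tnxb had the opposite order there, with 276 ± 9.51 CPM at day 0, 11.6 ± 10.7 CPM at day 7 and 10.6 ± 5.95 CPM at day 21. These sums came from as few as 10 cells and were not tested.

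Free RNA adds UMIs of abundant genes to cells that do not express them, so the leukocytes were read against lymphocytes. At day 7 the level in T/NK lymphocyte-like cells was 3.61 ± 0.466% of that in stromal-like cells of the same library for Tnc, 4.09 ± 0.794% for Postn, 4.11 ± 1.01% for Cthrc1 and 3.38 ± 0.305% for Sparc (n = 4). In macrophage-like cells these were 2.84 ± 0.375%, 3.26 ± 0.241%, 3.00 ± 0.238% and 2.38 ± 0.24%, none above the lymphocytes. Tnn at 3.16 ± 0.155% against 5.32 ± 0.945% and Tnxb at 4.64 ± 1.08% against 4.44 ± 3.86% gave no different reading. The macrophage values of these 6 genes at day 7 were therefore not read as macrophage expression. How much of them was free RNA was not tested. Dendritic cell-like cells of day 7 (n = 4) had lower means for all 6 genes. These were 2.14% for Tnc, 2.68% for Postn, 2.87% for Cthrc1, 2.08% for Sparc and 3.06% for Tnn, with overlap. For Tnxb the value was 1.76 ± 1.27%, without overlap. The comparison with lymphocytes is weaker at other days, with 3 lymphocyte libraries at day 0 and 1 at days 3 and 21. At day 0 Sparc was 2.21 ± 0.472% in macrophage-like cells and 0.964 ± 0.141% in the lymphocytes, without overlap, and Postn 1.87 ± 0.727% and 0%. At day 3 Tnc was 3.93 ± 1.01% against 0%, Cthrc1 4.74 ± 0.923% against 1.87% and Postn 5.64 ± 0.999% against 2.98%. Granulocyte-like cells of day 3 (n = 3) held 5.28% for Tnc, 6.15% for Cthrc1 and 6.22% for Postn. Dendritic cell-like cells (n = 3) held 3.26, 4.21 and 4.93%. The macrophage means lay between those of these 2 classes, so they did not stand apart from other leukocytes at day 3. At day 3 Fn1 and Tgfbi of the macrophage-like cells reached 44.3 ± 16.1% and 440 ± 83.0% of the stromal level. The granulocyte-like cells overlapped them, with 37.1 ± 11.7% and 325 ± 64.4%. In dendritic cell-like cells of day 3 the values were 9.54 ± 2.94% and 244 ± 53.9%. At day 7 the macrophage-like cells held Fn1 at 13.7 ± 5.15% and Tgfbi at 158 ± 42.9%. Both lay above the lymphocytes, with 5.46 ± 2.13% and 24.0 ± 11.6%. Dendritic cell-like cells of day 7 held 3.43 ± 0.231% and 105 ± 28.1%, the latter with overlap. The only granulocyte-like library of day 7 held 10.1% and 187%. At day 21 Tgfbi was 320 ± 80.1% against 6.55% in the only lymphocyte library, while Fn1 was 10.3 ± 2.89% against 26.7% in it. Dendritic cell-like cells of day 21 held Fn1 at 4.80 ± 2.83% (n = 4). For the other 6 genes the macrophage means of day 21 lay above the dendritic means and the lymphocyte library. Tnc was 4.06 ± 2.52%, Tnn 5.00 ± 1.71% and Cthrc1 3.03 ± 0.951% in macrophage-like cells. Dendritic cell-like cells held 2.43, 2.93 and 1.89%, with overlap for each, and the lymphocyte library 0%. Cells thinned to 1500 UMIs gave a like picture. A Tnc UMI was then found in 40.96% of stromal-like cells at day 7 (95% Wilson score interval 39.7 to 42.24%, 73.82% without thinning). It was found in 4.783% of T/NK lymphocyte-like cells. The median depths of the stromal-like and lymphocyte-like cells were 13868 and 4187 UMIs. Such intervals cover counting error only.

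**Figure D2:**
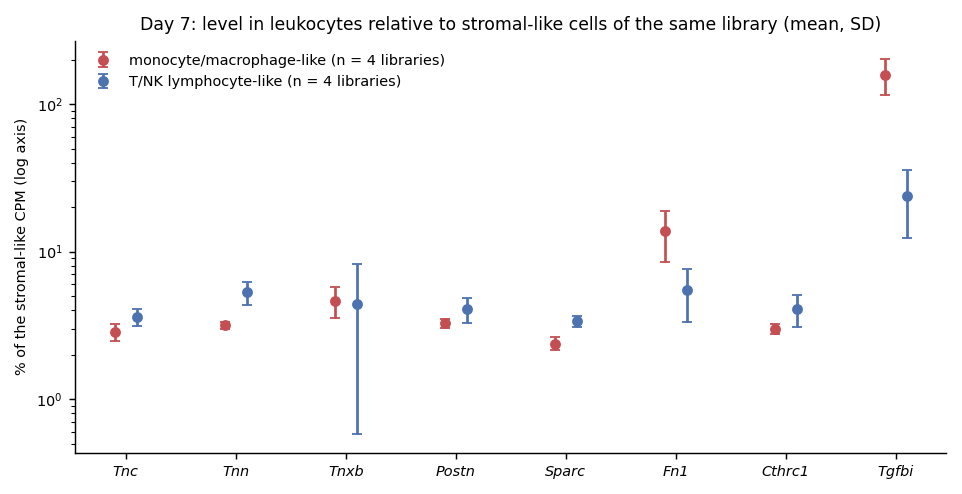
Level of each gene in monocyte/macrophage-like and T/NK lymphocyte-like cells as a percentage of its level in stromal-like cells of the same day 7 library (log axis). Points are means over libraries and bars are the SD. For 6 genes the points of both classes lie at a few percent, while Fn1 and above all Tgfbi of the macrophage-like cells lie above the lymphocytes.

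To follow the genes over the injury, UMIs of the stromal-like cells were summed per library and given as CPM on TMM-scaled library sizes. All 4 libraries of day 0 held Tnc at a trace, with 3.94, 5.07, 10.6 and 23.0 CPM. The levels were 340.3, 195 and 371 CPM at day 3, 710.4, 791, 759.7 and 726 CPM at day 7, and 162, 208, 249 and 328 CPM at day 21. Every injured library stood above every day 0 library, and day 7 stood above all others without p7N3. Tnc was 29.1-fold higher at day 3 (log2 fold change 4.86, SE 0.35, adjusted p = 8.8e-10, edgeR quasi-likelihood test with Benjamini-Hochberg adjustment over 14022 genes), 71.9-fold at day 7 and 22.8-fold at day 21. It rose 2.47-fold from day 3 to day 7 (adjusted p = 5.1e-04) and fell 3.15-fold from day 7 to day 21 (adjusted p = 4.1e-05). The size of the rise leaned on the highest day 0 library, since without day 0 replicate 4 the log2 fold changes at day 3, 7 and 21 were 5.51, 6.81 and 5.16 in place of 4.86, 6.17 and 4.51. With tenocyte-like cells added to the class they were 3.62, 4.97 and 3.70.

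Tnn, the bone-associated tenascin, was not seen in stromal-like cells at day 0, with 0 of 6325986 UMIs over 4 libraries, which allows up to 0.474 CPM (3 counts, counting error only). It stood at 22.8, 25.8 and 19.6 CPM at day 3, 152, 357, 247 and 236 CPM at day 7, and 63.0, 97.2, 85.9 and 158 CPM at day 21. The highest day 21 library lay above the lowest day 7 library. Against the day 0 limit Tnn was at least 44.7-fold higher at day 3, 526-fold at day 7 and 211-fold at day 21 (adjusted p = 3.0e-06, 8.1e-10 and 4.9e-08 in edgeR). It rose 10.9-fold from day 3 to day 7 (adjusted p = 2.0e-07) and fell 2.44-fold from day 7 to day 21 (adjusted p = 5.9e-04). The log2 fold change of this fall was -1.29, and it was -0.68 (adjusted p = 0.0124) with tenocyte-like cells added.

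Tnxb ran the other way. The day 0 libraries held 982, 765, 819 and 706 CPM. The day 3 libraries held 31.9, 49.0 and 31.0 CPM, those of day 7 120.3, 40.2, 127 and 47.4 CPM, and those of day 21 233, 259, 229 and 117 CPM. No injured library came near day 0, and days 7 and 21 overlapped. Tnxb was 21.8-fold lower at day 3 (log2 fold change -4.45, SE 0.41, adjusted p = 2.0e-08), 9.81-fold lower at day 7 (adjusted p = 1.3e-07) and 3.92-fold lower at day 21 (adjusted p = 9.9e-05). Between day 7 and day 21 it rose 2.50-fold (log2 fold change 1.32, adjusted p = 0.0032), a call lost with tenocyte-like cells added (0.72, adjusted p = 0.0917). At a fixed depth of 1500 UMIs, 60.65% of day 0 and 14.02% of day 7 stromal-like cells held a Tnxb UMI (83.09% and 30.11% without thinning).

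**Figure D3:**
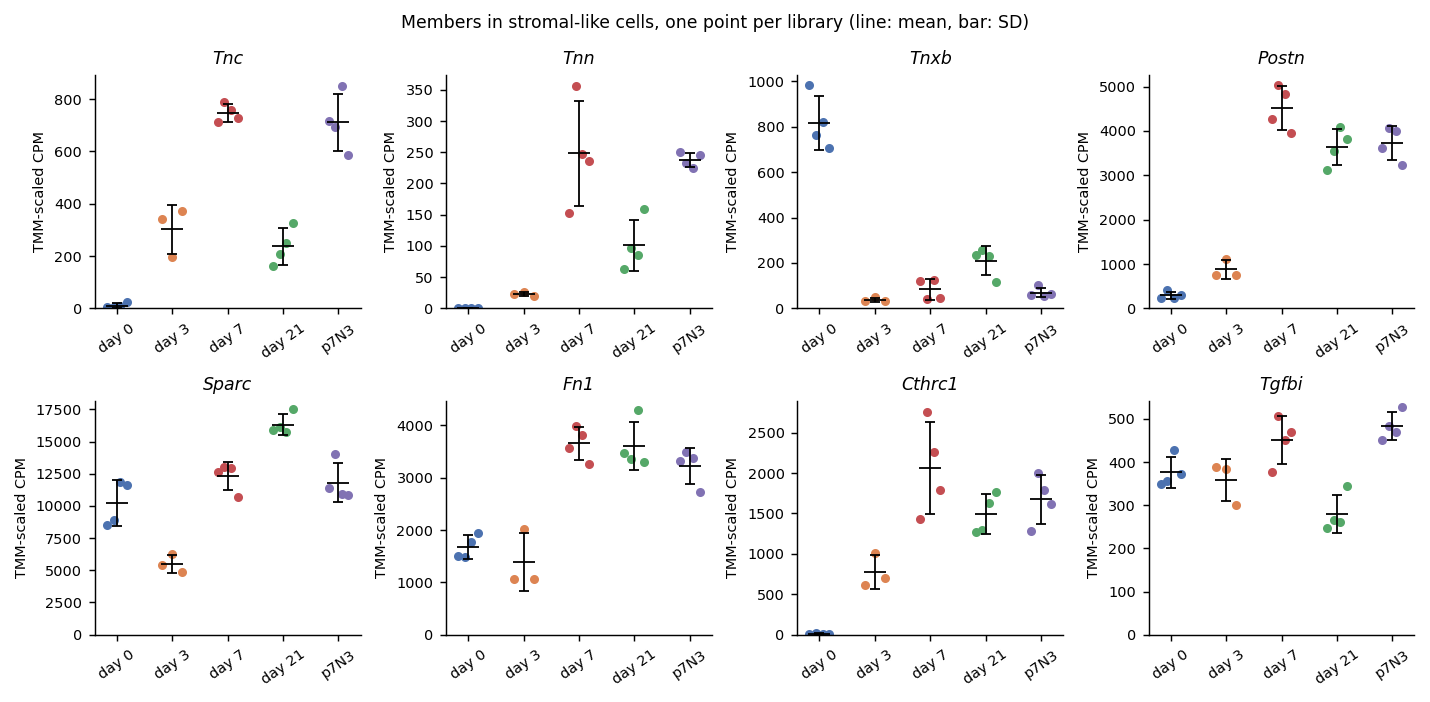
Level of each gene in the stromal-like cells of every library (points, CPM on TMM-scaled library sizes, 1 panel per gene with its own axis), with the mean as a line and the SD as a bar for day 0, 3, 7, 21 and day 7 with p7N3. Tnc, Tnn, Postn and Cthrc1 start low and are highest at day 7, Tnxb starts high and is low from day 3, and Tgfbi stays within 248 to 528 CPM.

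Periostin, a fasciclin protein that binds other members of this matrix, was already present at day 0 with 229.7, 408, 243 and 294 CPM. It stood at 763, 1117 and 749.9 CPM at day 3, at 4263, 5031, 4822 and 3962 CPM at day 7, and at 3117, 3556, 4081 and 3816 CPM at day 21. Groups of different days did not overlap except days 7 and 21. Postn rose 3.01-fold by day 3 (SE of log2 0.17, adjusted p = 1.3e-07), 15.5-fold by day 7 (adjusted p = 1.8e-12) and 12.5-fold by day 21 (adjusted p = 9.1e-12). On the log2 scale these were 1.59, 3.96 and 3.64, and with tenocyte-like cells added they were 0.89, 3.31 and 2.77.

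Cthrc1 had the widest swing of the members that were detected before injury. Its day 0 levels were 7.87, 19.3, 6.91 and 8.38 CPM. They were 609.5, 1014 and 697 CPM at day 3, 1433, 2757, 2266 and 1797 CPM at day 7, and 1273, 1290, 1628 and 1767 CPM at day 21. All injured libraries stood far above day 0, and days 7 and 21 overlapped. Cthrc1 rose 80.2-fold by day 3 (log2 fold change 6.33, SE 0.31, adjusted p = 9.9e-12), 214-fold by day 7 and 154-fold by day 21 (adjusted p = 8.7e-13 and 3.6e-12). With tenocyte-like cells added the log2 fold changes of 6.33, 7.74 and 7.27 were 4.83, 6.31 and 6.11.

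Fibronectin was abundant from the start, with 1503, 1476, 1769.8 and 1949.6 CPM at day 0. The day 3 libraries gave 1072, 2025 and 1069 CPM and did not differ from day 0 beyond their spread (log2 fold change -0.27, SE 0.18, adjusted p = 0.192). Fn1 was called lower at day 3 under 3 alternatives. These were day 3 replicate 2 left out (-0.64, adjusted p = 5.0e-04), scaling by total UMIs (-0.43, adjusted p = 0.0320) and a clustering resolution of 2 (-0.61, adjusted p = 0.0023). Day 7 gave 3561, 3981, 3822 and 3265 CPM and day 21 3473, 3350.3, 4296 and 3298 CPM, all above day 0. Fn1 rose 2.18-fold by day 7 (SE of log2 0.16, adjusted p = 9.0e-06) and 2.15-fold by day 21 (adjusted p = 3.1e-05).

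Sparc moved down and then up. It stood at 8524, 8884, 11837 and 11631 CPM at day 0 and at 5374, 6229 and 4849.7 CPM at day 3, 1.86-fold lower without overlap (log2 fold change -0.90, SE 0.13, adjusted p = 4.4e-06). Day 7 held 12618, 13039, 12906 and 10693 CPM, overlapped day 0 and missed the threshold (log2 fold change 0.27, SE 0.11, adjusted p = 0.0540). Day 21 held 15857, 16110, 15715 and 17522 CPM, above every other library, and was 1.60-fold higher than day 0 (adjusted p = 1.4e-04). The day 7 call changed when single libraries were left out. Without day 0 replicate 3 or 4, day 3 replicate 2 or 3, day 7 replicate 4, day 21 replicate 2 or p7N3 replicate 1, 2 or 4, the log2 fold change was 0.26 to 0.34 with adjusted p from 0.0230 to 0.0467. It was also called, at 0.28 to 0.39, under DESeq2, RLE factors, no filter, replicates 1 to 3, at most 10% mitochondrial UMIs, doublet removal and a resolution of 2.

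Tgfbi, the other fasciclin protein, kept a narrow range. It stood at 348, 355, 429 and 373 CPM at day 0, 389.8, 383 and 302 CPM at day 3, 376, 508, 451 and 471 CPM at day 7 and 248, 267, 262 and 346 CPM at day 21. Day 3 overlapped day 0 (log2 fold change -0.07, SE 0.13, adjusted p = 0.642), as did day 7 (0.26, SE 0.12, adjusted p = 0.0632), while day 21 was 1.34-fold lower (adjusted p = 0.0080). The day 7 call also hung on single libraries. Without day 0 replicate 3, day 3 replicate 3, day 7 replicate 1, day 21 replicate 2 or 4 or p7N3 replicate 4 it was 0.26 to 0.33 with adjusted p from 0.0198 to 0.0496. It was called as well, at 0.28 to 0.34, under DESeq2, no filter, at most 10% mitochondrial UMIs, a resolution of 2 and with tenocyte-like cells added.

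Read over the whole class, 6 of 8 members were called at day 3 against day 0 (4 higher, 2 lower) where 61.5% of all genes tested were called. At day 7 the count was 6 (5 higher, 1 lower) against 54.7% of genes, and at day 21 it was 8 (6 higher, 2 lower) against 36.6%. These comparisons share the day 0 libraries. The median log2 fold change of the 8 genes was 0.76, 2.54 and 2.38, and that of all genes 0.03, 0.03 and 0.01. From day 3 to day 7 all 8 members were called higher, where 47.8% of genes were called. Postn rose 5.15-fold, Cthrc1 2.67-fold, Fn1 2.63-fold and Sparc 2.25-fold. Tnxb and Tgfbi overlapped between these days. Their calls were lost, with log2 fold changes of 0.88 to 1.05 for Tnxb (adjusted p 0.0520 to 0.0572) without day 3 replicate 1 or 3 or day 7 replicate 3, and of 0.22 to 0.34 for Tgfbi (adjusted p 0.0527 to 0.199) without day 3 replicate 3 or day 7 replicate 2, 3 or 4.

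Since 1 cluster made up most of the day 3 cells, the day 3 comparisons were repeated without the cluster led by Prg4, Wfdc21 and Retnlg, an alternative chosen after seeing the data. That cluster held 746 of the 823 stromal-like cells of day 3, so the repeat rests on few day 3 cells. Of the members 6 were again called against day 0, where 35% of genes were. Tnxb was then 6.66-fold lower (log2 fold change -2.74, SE 0.41, adjusted p = 2.8e-05), Sparc had a log2 fold change of -0.46 (adjusted p = 0.0242) and Tnc one of 4.23 (adjusted p = 1.1e-07). From day 3 to day 7, 6 members were higher, where 13.5% of genes were called. Tnxb (-0.54, SE 0.39, adjusted p = 0.411) and Tgfbi (0.06, SE 0.13, adjusted p = 0.839) were not.

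The members were not spread evenly over the stromal clusters. Tnc was carried at day 7 by the clusters led by Crabp1, Col7a1 and Acta2 (1232 ± 196 CPM, n = 4) and by Ube2c, Birc5 and Hist1h2ap (1003 ± 98.2 CPM). Next came those led by C1qtnf3, Scx and Mest (898 ± 124 CPM) and by Gzme, Gzmc and Brinp1 (627 ± 210 CPM). Each of these overlapped the next in that order. In the Ube2c cluster 97.06% of cells reached a minimum count of UMIs summed over proliferation genes. Tnc was 67.2 ± 9.61 CPM in the Sfrp4 cluster, 23.1 ± 3.43 CPM in the cluster led by Has1, Gm12840 and Il6, and 10.8 ± 7.89 CPM in the Myoc cluster. The last 2 were no higher than the T/NK lymphocyte-like cells of day 7 with 27.1 ± 2.85 CPM. Tnn had the same 4 clusters in front, with the C1qtnf3 cluster at 369 ± 71.6 CPM, and was 8.17 CPM in the Myoc and 4.28 CPM in the Has1 cluster. The Myoc and Has1 clusters together with the Sfrp4 cluster carried Tnxb instead. At day 7 Tnxb stood at 773 ± 187 CPM in the Myoc, 790 ± 80.2 CPM in the Has1 and 344 ± 58.1 CPM in the Sfrp4 cluster, and at 10.3 to 19.8 CPM in the Tnc-bearing clusters. The Sfrp4, Has1 and Myoc clusters held 55.5%, 17.4% and 11.5% of the stromal Tnxb UMIs of day 7 with 13.2%, 1.88% and 1.33% of stromal UMIs.

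**Figure D4:**
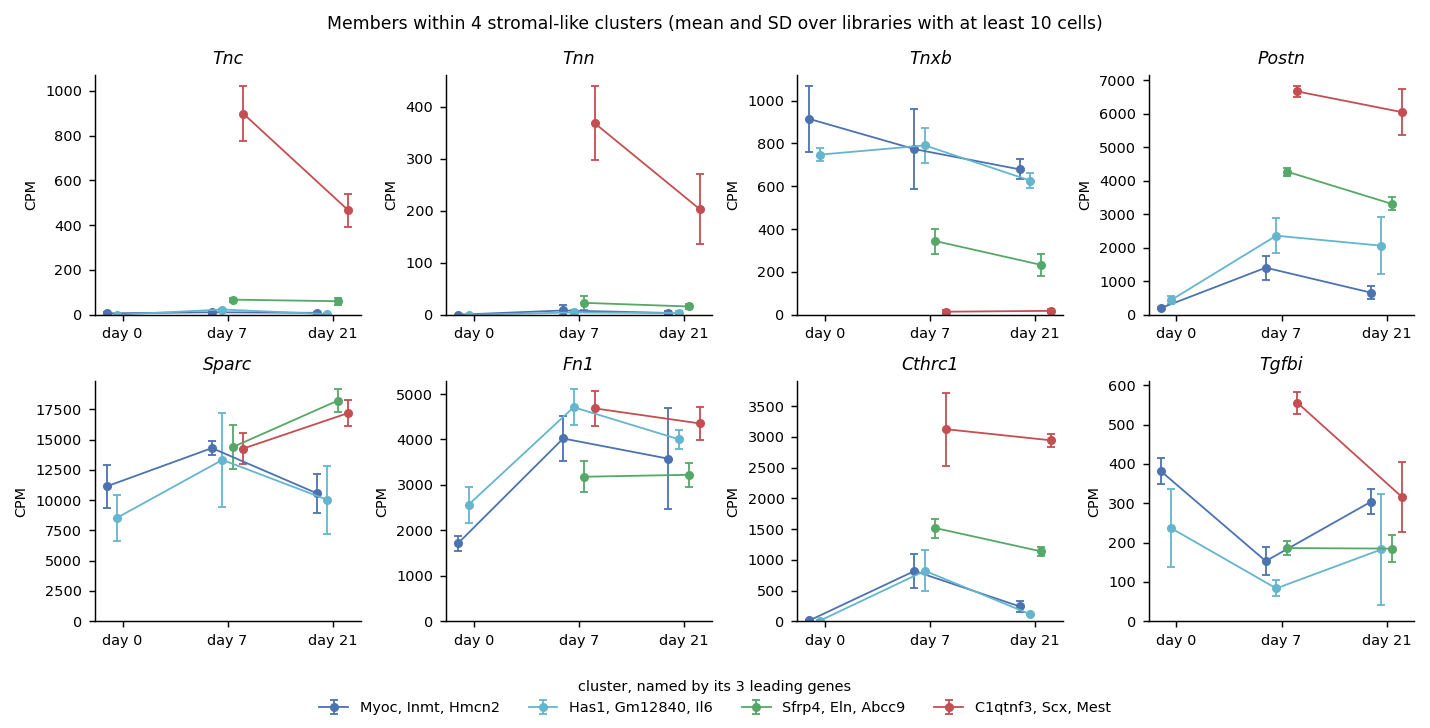
Level of the 8 genes at day 0, 7 and 21 in the stromal clusters led by Myoc, Has1, Sfrp4 and C1qtnf3 (CPM, mean and SD over libraries with at least 10 cells of the cluster). Tnxb stays high in the Myoc and Has1 clusters at all 3 days, Tnc and Tnn are high in the C1qtnf3 cluster and close to 0 in the Myoc and Has1 clusters.

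The Myoc and Has1 clusters held enough cells at day 0, 7 and 21 to compare each with itself, a choice made after seeing the data. The Myoc cluster had 124 to 350 cells per library at day 0 and 12 to 63 at day 7, the Has1 cluster 11 to 61 and 27 to 82. In the Myoc cluster the Tnxb levels were 1123, 918, 856 and 759 CPM at day 0, 762, 547, 779.8 and 1004 CPM at day 7, and 653, 627, 704 and 730.1 CPM at day 21. Days 0 and 7 overlapped, and the log2 fold change was -0.13 (SE 0.19, adjusted p = 0.722), beside -3.29 for the whole class. In the Has1 cluster Tnxb was 721, 769, 779.7 and 720.0 CPM at day 0, 725, 733, 806 and 898 CPM at day 7 and 629, 589 and 661 CPM at day 21, where replicate 4 had under 10 cells. Its log2 fold change at day 7 was 0.06 (SE 0.14, adjusted p = 0.840). At day 21 every library of either cluster lay below those of day 0, and the values were -0.42 (SE 0.18, adjusted p = 0.221) in the Myoc and -0.26 (SE 0.16, adjusted p = 0.486) in the Has1 cluster, beside -1.97 for the class. No change of Tnxb within either cluster passed the threshold, while that of the class did at both days. The clusters were drawn from expression, and Abca8a, a leading gene of the Myoc cluster, moved with Tnxb over the stromal-like sums (r = 0.987). A cell that lost such genes together with Tnxb could fall outside the cluster. These comparisons therefore cannot show whether single cells lost Tnxb.

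Of the 6 members tested, Cthrc1, Postn and Fn1 did rise inside both clusters. In the Myoc cluster Cthrc1 went from 13.1 CPM at day 0 to 818 CPM at day 7 (log2 fold change 6.21, SE 0.33, adjusted p = 2.2e-12) and Postn from 197 to 1405 CPM (2.94, SE 0.23, adjusted p = 6.7e-09). Fn1 went from 1718 to 4022 CPM (1.32, SE 0.21, adjusted p = 9.5e-05). In the Has1 cluster the log2 fold changes were 6.90 for Cthrc1, 2.44 for Postn and 0.85 for Fn1 (adjusted p = 3.1e-09, 7.7e-07 and 2.2e-04), and Sparc was called as well (0.60, SE 0.21, adjusted p = 0.0494). Tgfbi fell in both, from 382 ± 33.6 to 153 ± 34.7 CPM in the Myoc cluster (log2 fold change -1.26, SE 0.17, adjusted p = 1.7e-05) and by 1.58 on the log2 scale in the Has1 cluster (SE 0.34, adjusted p = 0.0020), although the class as a whole had not passed the threshold. At day 7, 4 of the 6 members tested were called in the Myoc cluster (3 higher) and 5 in the Has1 cluster (4 higher), where 15.3% and 16.9% of genes were called. At day 21 Postn, Fn1 and Cthrc1 were called higher in each, where 4.09% and 3.14% of genes were. Tnc and Tnn were under the filter on low counts in both clusters.

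**Figure D5:**
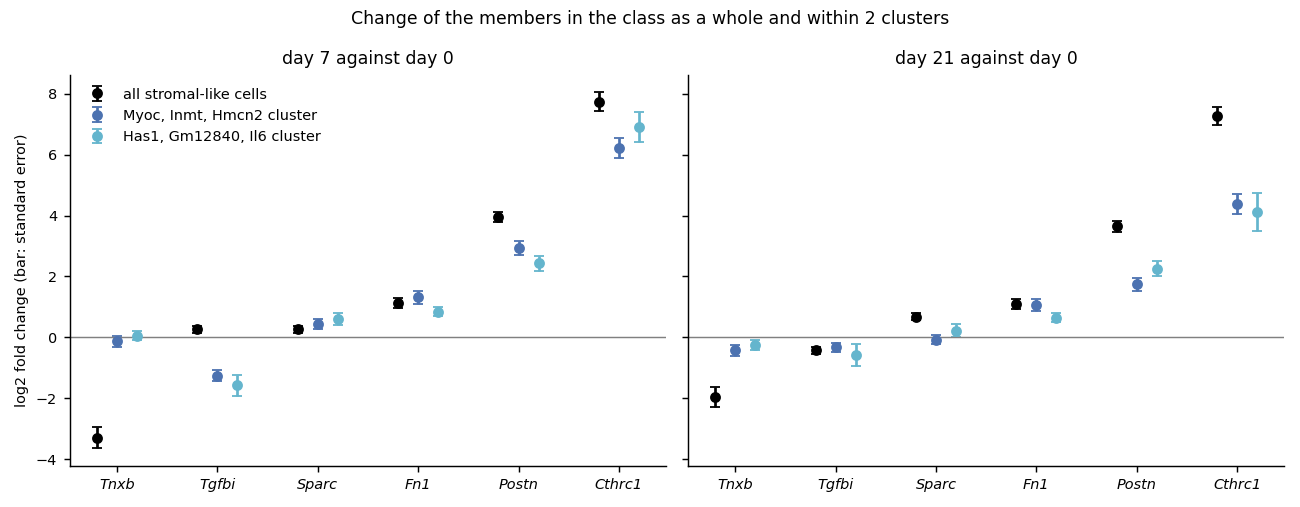
Log2 fold change with its SE (bar) of 6 genes at day 7 and day 21 against day 0, in all stromal-like cells and within the clusters led by Myoc and by Has1. Tnxb is far below 0 in the class and near 0 in both clusters, Tgfbi is near 0 in the class and below 0 in both clusters at day 7, and Postn, Fn1 and Cthrc1 are above 0 throughout.

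Between day 7 and day 21, 5 members were called in the class (Sparc and Tnxb higher, Tnc, Tnn and Tgfbi lower), where 37.6% of genes were called. Sparc was 1.32-fold higher (adjusted p = 0.0095, and 0.0692 with replicates 1 to 3) and Tgfbi 1.61-fold lower (adjusted p = 1.5e-04). Postn (-0.31, adjusted p = 0.120), Fn1 (-0.02, adjusted p = 0.941) and Cthrc1 (-0.47, adjusted p = 0.0742) were not called. Cthrc1 passed without day 7 replicate 1 (-0.61, adjusted p = 0.0211) and at a resolution of 2 (-0.76, adjusted p = 0.0070). Postn passed at that resolution (-0.41), with the compared groups alone (-0.30) and with tenocyte-like cells added (-0.54). The clusters were then compared with themselves, beginning with the Sfrp4 and C1qtnf3 clusters, which held 47.9% and 23.8% of stromal UMIs at day 21. In the C1qtnf3 cluster Tnc was 1070, 802, 907 and 812 CPM at day 7 and 432, 463, 398 and 569 CPM at day 21, without overlap (log2 fold change -0.84, SE 0.18, adjusted p = 0.0041). Tnn (-0.74, adjusted p = 0.0167) and Tgfbi (-0.71, adjusted p = 0.0039) fell there too, Sparc rose by 0.37 (adjusted p = 0.0125), and Cthrc1 (0.01, SE 0.13) and Postn (-0.04, SE 0.08) were not called. That made 4 of 8 members, where 18.1% of genes were called. In the Sfrp4 cluster 3 of 8 were called, where 11.6% of genes were, and all were lower. They were Tnxb (-0.57, SE 0.14, adjusted p = 0.0147), Postn (-0.37, adjusted p = 0.0074) and Cthrc1 (-0.42, adjusted p = 0.0364). Tnxb thus fell in the Sfrp4 cluster from day 7 to day 21 and rose in the class. In the Myoc cluster 4 of 6 members were called, where 6.32% of genes were, and some went the other way from the C1qtnf3 cluster. Tgfbi was higher at day 21 there (0.93, SE 0.18, adjusted p = 0.0017) and Sparc lower (-0.52, SE 0.15, adjusted p = 0.0450), and Cthrc1 (-1.83, adjusted p = 9.3e-05) and Postn (-1.20, adjusted p = 0.0012) fell. In the Has1 cluster Cthrc1 was called lower (-2.78, SE 0.36, adjusted p = 1.4e-04), 1 of 6 where 2.65% of genes were. Tgfbi there was 1.00 (SE 0.39, adjusted p = 0.208).

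To ask what p7N3 did to the members, its libraries were set against those of day 7. In stromal-like cells Tnc was 716, 692, 851 and 588 CPM with p7N3, Tnn 249.6, 233, 225 and 245 CPM, and Tnxb 59.5, 102, 55.5 and 62.5 CPM. All 3 tenascins overlapped day 7. Postn was 3625, 4066, 4005 and 3242 CPM and Cthrc1 1284, 2000.2, 1795 and 1623 CPM. None of the 8 members was called in edgeR, none had an unadjusted p under 0.05, and 0.314% of genes were called. The 95% intervals of the log2 difference were -0.54 to 0.40 for Tnc, -0.53 to 0.41 for Tnn, -0.89 to 0.38 for Tnxb, -0.58 to 0.03 for Postn, -0.70 to 0.10 for Cthrc1, -0.50 to 0.14 for Fn1, -0.29 to 0.17 for Sparc and -0.13 to 0.33 for Tgfbi. Changes within these bounds could not be told from none. Within the C1qtnf3 and Sfrp4 clusters 0 of 8 members were called as well, where 0.144% and 0.00988% of genes were. In the Myoc and Has1 clusters 0 of 6 were called and 0% of genes, with 2 and 0 members at an unadjusted p under 0.05.

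Macrophage-like cells (15029 cells) were read for Fn1 and Tgfbi, the members above the lymphocytes at day 7. Tgfbi stood at 774, 655, 785 and 708 CPM at day 0, 1704, 1241 and 1478 CPM at day 3, 838, 784, 532 and 845 CPM at day 7 and 1095, 737, 726 and 973 CPM at day 21. Day 3 lay above all others, and the rest overlapped. Tgfbi rose at day 3 (log2 fold change 1.01, SE 0.15, adjusted p = 1.4e-05) and was not called at day 7 (0.04, SE 0.14, adjusted p = 0.872) or day 21 (0.27, SE 0.14, adjusted p = 0.196). At day 3 macrophage-like cells held 79.8% of all Tgfbi UMIs and stromal-like cells 12.0%, and at day 7 the shares were 32.8% and 57.9%. The make-up of the libraries moved too. These classes were on average 69.2% and 14.0% of cells at day 3 and 38% and 42.5% at day 7. Fn1 stood at 253, 239, 254 and 193 CPM at day 0, 497, 499 and 592 CPM at day 3, 533, 412, 424 and 728 CPM at day 7 and 342, 310.3, 316 and 484 CPM at day 21. Every injured library stood above day 0. The log2 fold changes were 1.17 at day 3 (adjusted p = 2.6e-05), 1.16 at day 7 (adjusted p = 1.7e-05) and 0.63 at day 21 (adjusted p = 0.0146). The last was lost without day 0 replicate 4 (0.55, adjusted p = 0.0575) or day 21 replicate 4 (0.46, adjusted p = 0.0783), under total UMIs (0.44) and with replicates 1 to 3 (0.39), and Fn1 was below the single lymphocyte library of day 21. With all genes allowed to define the clusters the 3 values for Fn1 were 2.59, 2.55 and 1.86.

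Of the 8 members 6 were called at day 3 in macrophage-like cells, 7 at day 7 and 6 at day 21, where 38.1%, 33.6% and 20.5% of genes were called. Those counts include the genes at the lymphocyte level at day 7, such as Postn, with macrophage means of 5.57, 47.9, 158 and 86.3 CPM at day 0, 3, 7 and 21 beside stromal means of 294, 877, 4520 and 3643 CPM. With p7N3 no member was called, 0% of genes were, and 1 member (Tgfbi, log2 fold change 0.31, SE 0.14, adjusted p = 0.673) and 813 genes had an unadjusted p under 0.05. Tgfbi was 961, 921, 955 and 874 CPM with p7N3, all above the day 7 libraries. Whether macrophage-like and stromal-like cells changed by different amounts against day 0 was tested for Fn1, Tgfbi and Sparc at days 7 and 21 with an exact two-sided permutation test over libraries, whose smallest p is 0.0286. For Tgfbi at day 21 the change in macrophages exceeded that in stromal cells by 0.584 on the log2 scale (n = 4 and 4). Its exact permutation p was 0.0286, the smallest possible. For Fn1 at day 21 the difference was -0.592 (exact permutation p = 0.0571). Both stood at 0.171 after adjustment over the 6 tests, and none of the 6 passed. A single test at the smallest p cannot pass this adjustment, so the lack of a call does not show equal changes. Day 3 was not tested in this way.

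Other genes of this matrix were read from 4 lists of 60 genes in all. Of 14 thrombospondins and other matricellular proteins, 11 were higher and 2 lower at day 21 in stromal-like cells, beside 36.6% of all genes called. Thbs4, a tendon thrombospondin, went from 83.9 CPM at day 0 to 951 ± 102 CPM at day 21. Spp1, osteopontin, went from 35.9 CPM at day 0 to 554 ± 293 CPM at day 3 and 831 ± 124 CPM at day 7. Macrophage-like cells held more Spp1 after injury, with 16.9, 2180 ± 349 and 3602 ± 1122 CPM at day 0, 3 and 7. How much of the stromal Spp1 was free RNA was not tested. The same list had 4 higher and 5 lower at day 3 and 6 and 3 at day 7, close to the 61.5% and 54.7% of all genes called then. Of 12 tested relatives of the tenascins, of Sparc and of the fibulins, 3 were higher and 7 lower at day 3 and 4 and 5 at day 7, beside the same shares. Sparcl1 went from 282 to 20.2 CPM at day 7, and Efemp1, a fibulin, from 235 to 33.3 CPM at day 7. Among 16 integrins and syndecans, the receptors of these proteins, 7 were higher and 5 lower at day 3 and 4 and 5 at day 7, where the count was near the share of all genes. Of 14 enzymes that assemble or cut the matrix, 8 were higher and 3 lower at day 7, beside 54.7% of all genes. Mmp14, a membrane-bound collagenase, went from 114 CPM at day 3 to 465 CPM at day 7. With p7N3, 1 of the 16 integrins and syndecans and no gene of the other lists was called, beside 0.314% of all genes. It was Sdc4, with 250.5 ± 68.5 CPM against 158 ± 14.0 CPM (log2 fold change 0.67, SE 0.14, adjusted p = 0.0484). The call lay close to the threshold. How many genes were called with p7N3 varied widely between alternatives, and Sdc4 was not followed through them.

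Over the 19 stromal-like sums, the genes most like each member among 7933 genes were found by Pearson's r of log2(CPM + 1), a description over libraries that share days. Tnc lay closest to Csrp2 (r = 0.975), Enah and Wisp1. Tnn and Cthrc1 had Col12a1 in common, with r = 0.989 and 0.984, and Tnn was also close to Fbn2 and Lrrc15. Postn lay closest to C1qtnf6, Col11a1 and Megf6, Fn1 to Cercam, Igdcc4 and Col5a2, and Sparc to Col3a1, Antxr1 and Izumo4. Tnxb lay with Ctso, Abca8a and Cd34 (r = 0.985 to 0.987). For Tgfbi, Prpf38a (r = 0.882) and Rbm4b (r = 0.880) were among the closest.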

How the data were processed

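Tissue of the tenotomy site was digested with collagenase and dispase and loaded on 10x 3′ v2 droplets. The authors processed the reads with Cell Ranger and deposited UMI counts per gene and barcode, raw and not normalized. The study names mm10, while the processing notes name GRCh38 for 15 libraries and mm10 for 4, and all gene identifiers are of mouse. The file of day 0 replicate 1 was not limited to called cells and kept 1003 of its 373619 barcodes here. UMIs count molecules, so levels were not divided by length and are compared within a gene only. Pairs of libraries shared at most 22 cell barcodes, where 14.4 and 12.6 were expected for the pairs with that number. Day 0 replicate 1 and day 21 replicate 2 shared 6, where 1.2 were expected.

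Cells that passed the filter (500 genes or more, mitochondrial UMIs of 25% or less) were clustered (Python 3.11.15, scanpy 1.11.5, leidenalg 0.10.2, 2000 variable genes, 30 components, 20 neighbours, resolution 0.8), with 68 listed genes, the members included, left out of the variable genes. Doublets were not removed, which was an alternative. Clusters were named from marker lists, and the names are rebuilt, not the authors'. UMIs were summed per library and class with at least 10 cells. Sums were tested in R 4.3.3 with edgeR 4.0.16 (quasi-likelihood, TMM factors, filterByExpr, all 5 groups in 1 fit, Benjamini-Hochberg over all genes tested, threshold 0.05), which was tested on simulated data. The SE is the log2 fold change over the root of F. Permutation tests were exact and two-sided (scipy 1.17.1). Alternatives used DESeq2 1.42.0, other scalings, filters, cell sets and libraries left out. Libraries were not paired by replicate number in the main fit. Reads and the genotype were not analysed here.

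The 8 members were described in every comparison. Of the wider lists, counts are given with at most the 3 largest called changes in a direction, and for likeness the 3 genes with the highest r and a mean of at least 10 CPM. The members and lists were chosen with earlier results of these data known. Promoters were those of RefSeq on GRCm38.p6. Of the promoter windows 1, and of the genes found by likeness 1, is not reported here.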

Additional observations from a re-analysis of the deposited data

Results flagged for a closer look

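Of 61 groups of 4 libraries, 3 held a library whose gap to the nearest other, divided by the range of the group, was above Dixon's 95% critical value, and chance gives about 1 in 20. In stromal-like cells with p7N3, Tnxb was 102 CPM in replicate 2 and 55.5 to 62.5 CPM in the other libraries. In stromal-like cells of day 0, Cthrc1 was 19.3 CPM in replicate 2 and 6.91 to 8.38 CPM in the others. In macrophage-like cells of day 0, Cthrc1 was 2.72 CPM in replicate 4, which is 1 UMI, and 0 in the others.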

How the results depend on the processing

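Recomputed under the alternatives, 416 counts and differences of change kept their direction and their side of the threshold, 4 moved and 2 turned sign. Of the log2 fold changes of single members 2151 did so, 46 passed the threshold anew, 27 no longer passed it and 46 turned sign. Members called with p7N3 stayed at 0 in every alternative run. Single clusters, chosen after seeing the data, gave 3 members called at day 21 against day 0 in the Myoc and 3 in the Has1 cluster in place of 8, and 3 in the Sfrp4 and 1 in the Has1 cluster at day 21 against day 7 in place of 5. They also turned the sign of Tnxb at day 7 (0.0569, Has1 cluster), of Tgfbi at day 7 (-1.26 in the Myoc and -1.58 in the Has1 cluster), of Sparc at day 21 (-0.0747, Myoc cluster) and, between day 7 and day 21, of Tnxb (-0.569) and Fn1 (0.0155) in the Sfrp4 cluster, Cthrc1 (0.0139) in the C1qtnf3 cluster, and Tgfbi (0.928 and 1.00), Sparc (-0.516 and -0.377) and Tnxb (-0.295 and -0.312) in the Myoc and Has1 clusters. With p7N3 they gave Tnc 0.0166 and 0.294, Tnn 0.0159 and 0.274 (C1qtnf3 and Sfrp4 clusters) Tgfbi -0.198 (Sfrp4 cluster) and -0.432 (Myoc cluster), Tnxb 0.206 (Myoc cluster) and Cthrc1 0.0296 (Has1 cluster). Without the Prg4 cluster Tgfbi at day 3 was 0.213 and Tnxb from day 3 to day 7 was -0.542. Fn1 between day 7 and day 21 was 0.189 with tenocyte-like cells added. In macrophage-like cells Tgfbi at day 7 was -0.0155 under DESeq2 and under RLE factors, -0.221 under total UMIs, -0.0456 with replicates 1 to 3, -0.0289 with the compared groups alone and -0.0153 with all genes variable. Fn1 with p7N3 was 0.125 with replicates 1 to 3, which also gave -0.0101 for the Sparc difference at day 7. The causes were not tested.

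With libraries left out in turn, sign turned within -0.131 to 0.0486 for Tgfbi at day 3, -0.115 to 0.0241 for Fn1 between day 7 and day 21, and, with p7N3, -0.168 to 0.0063 for Tnc, -0.235 to 0.166 for Tnn and -0.497 to 0.0169 for Tnxb. In macrophage-like cells the ranges were -0.0178 to 0.170 for Tgfbi at day 7 and, with p7N3, -0.146 to 0.0513 for Tnc, -0.158 to 0.0242 for Sparc and -0.170 to 0.128 for Fn1. The Sparc difference of change at day 7 ranged from -0.0216 to 0.213. Genes called with p7N3 in stromal-like cells numbered 44, and 4 (without p7N3 replicate 3) to 76 (without day 7 replicate 1) with a library left out, 217 under DESeq2, 61 without the filter, 31 under total UMIs, 6 with replicates 1 to 3 and 1 with the compared groups alone. In macrophage-like cells they numbered 0, and 0 to 13 (without p7N3 replicate 2) with a library left out, 23 under DESeq2 and 121 without the filter. Total UMIs moved the median of all genes from 0.06 to -0.13 at day 3 and from 0.04 to -0.21 at day 7 in macrophage-like cells and from 0.03 to -0.13 at day 3 in stromal-like cells. Higher calls went from 46.4 to 58.7% from day 3 to day 7 in stromal-like cells, and from 55.2 to 39.5%, 55.3 to 33.0% and 58.9 to 33.5% at day 3, 7 and 21 in macrophage-like cells.

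The replicate block added the replicate number, which the labels do not tie to a litter or day. Deviations of same-numbered libraries correlated at -0.234 to 0.412 (median 0.013) in stromal-like cells. Those of differently numbered libraries correlated at -0.527 to 0.425 (median 0.0015). The value of 0.412 belonged to replicate 4 of day 7 and of day 21, and day 3 has no replicate 4. Whether same-numbered libraries shared a batch cannot be told from these values. With the replicate block 7 in place of 8 members were called from day 3 to day 7 (Tgfbi 0.286, adjusted p = 0.0552), 6 in place of 5 from day 7 to day 21 (Cthrc1 -0.423, adjusted p = 0.0329), and 59 genes with p7N3. It changed no other member's call in stromal-like or macrophage-like cells.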
